A study of Homo sapiens with 6 samples.

Results

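The genes described here encode splicing factors of 7 symbol families: SRSF, HNRNP, SNRP, SF3A, SF3B, U2AF and PRPF. A gene was a member if it was protein-coding, its symbol began with 1 of these names and the symbol held no hyphen. This gave 74 of the 20037 protein-coding genes on chromosomes 1 to 22, X and Y. MYC chromatin immunoprecipitation sequencing (ChIP-seq) was done in MIAPaCa2, an established human pancreatic ductal adenocarcinoma cell line. All cells were first kept in serum-free medium for 48 hours. They then received, for 3 hours, either fresh DMEM without serum (DMEM, 2 libraries) or serum-free medium conditioned by primary cancer-associated fibroblasts (CM, 2 libraries). The values therefore come from 1 tumour cell line, and the labels do not say whether the libraries of a condition are separate cultures, so the spread between them may be technical. A gene is called bound in a library when a peak of that library's deposited list lay within 1000 bp of either outermost end of the gene.

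Splicing removes introns from transcripts in the spliceosome, which is built from small nuclear ribonucleoproteins (snRNPs). The SNRP genes encode the Sm proteins that form a ring on the snRNAs, and particle-specific proteins of the U1 and U2 snRNPs. U2AF marks the 3′ splice site, SF3A and SF3B are parts of the U2 snRNP that hold it on the branch point, and most PRPF proteins act in the tri-snRNP or in the activation of the spliceosome. SRSF genes encode SR proteins, which bind exons and mostly favour their inclusion, while HNRNP genes encode abundant proteins that coat transcripts and often oppose it. MYC binds DNA as a dimer with MAX, with a preference for the E-box CACGTG, and genes of RNA processing are among its known targets in proliferating cells.

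The promoters below show the DNA next to which the peaks were found or missing. Each line gives the 250 bases before the outermost start of the gene, 5′ to 3′ along the gene, from RefSeq (GRCh38.p14). Capitals mark the E-box CACGTG and, on either strand, the variant CACATG or the variant CACGCG. HNRNPA3 (+ strand, chr2:177212544-177212793), HNRNPD (− strand, chr4:82373992-82374241) and HNRNPDL (− strand, chr4:82430463-82430712) are shown as E-box promoters bound in all 4 libraries. HNRNPH2 (+ strand, chrX:101407972-101408221) and SF3B1 (− strand, chr2:197435094-197435343) are E-box promoters bound in CM alone. SRSF6 (+ strand, chr20:43457646-43457895), with none of these motifs here, had the highest mean rank of all members, and PRPF8 (− strand, chr17:1684868-1685117) had no peak.
HNRNPA3: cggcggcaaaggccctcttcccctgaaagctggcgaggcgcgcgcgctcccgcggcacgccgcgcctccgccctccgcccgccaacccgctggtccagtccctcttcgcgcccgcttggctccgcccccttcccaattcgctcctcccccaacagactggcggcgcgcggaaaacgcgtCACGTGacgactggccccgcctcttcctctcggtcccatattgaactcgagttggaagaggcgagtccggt
HNRNPD: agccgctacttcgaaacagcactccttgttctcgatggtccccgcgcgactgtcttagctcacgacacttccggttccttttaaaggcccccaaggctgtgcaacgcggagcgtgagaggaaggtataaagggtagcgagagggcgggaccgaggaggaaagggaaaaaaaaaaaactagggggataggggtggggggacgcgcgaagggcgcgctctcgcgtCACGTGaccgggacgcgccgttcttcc
HNRNPDL: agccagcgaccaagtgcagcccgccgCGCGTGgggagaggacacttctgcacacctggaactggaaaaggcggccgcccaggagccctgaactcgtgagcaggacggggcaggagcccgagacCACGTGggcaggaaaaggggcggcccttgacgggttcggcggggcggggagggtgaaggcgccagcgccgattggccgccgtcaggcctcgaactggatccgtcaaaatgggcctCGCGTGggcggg
HNRNPH2: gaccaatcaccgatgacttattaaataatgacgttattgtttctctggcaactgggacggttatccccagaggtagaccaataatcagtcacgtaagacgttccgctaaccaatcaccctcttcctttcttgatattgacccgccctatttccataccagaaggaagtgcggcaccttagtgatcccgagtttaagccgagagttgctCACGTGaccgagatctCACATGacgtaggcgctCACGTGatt
SF3B1: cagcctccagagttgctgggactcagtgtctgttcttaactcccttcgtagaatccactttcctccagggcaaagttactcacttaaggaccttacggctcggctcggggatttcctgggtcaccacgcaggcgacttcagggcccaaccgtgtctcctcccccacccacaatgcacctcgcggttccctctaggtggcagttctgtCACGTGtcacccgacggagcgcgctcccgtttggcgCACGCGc
SRSF6: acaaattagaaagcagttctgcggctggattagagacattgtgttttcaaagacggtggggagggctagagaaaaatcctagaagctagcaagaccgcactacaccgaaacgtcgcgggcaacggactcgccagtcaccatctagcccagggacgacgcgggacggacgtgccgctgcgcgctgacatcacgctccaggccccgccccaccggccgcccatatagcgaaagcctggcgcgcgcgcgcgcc
PRPF8: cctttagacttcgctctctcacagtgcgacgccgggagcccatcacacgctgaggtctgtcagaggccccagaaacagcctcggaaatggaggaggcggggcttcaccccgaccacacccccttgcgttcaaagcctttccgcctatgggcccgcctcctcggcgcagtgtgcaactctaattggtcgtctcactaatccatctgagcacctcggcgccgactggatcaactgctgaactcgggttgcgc

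The promoter table held 65 of the 74 members. Within 300 bp, from 250 bp before to 50 bp after the outermost start, CACGTG was found in 8 of 65 member promoters (12.3%), against 8.82% of 15843 protein-coding promoters. With every listed promoter of a gene searched, the same 8 members held it (12.3%), against 10.9% of the 15843 genes. Of these 8 genes, 7 were HNRNP genes: HNRNPA3, HNRNPD, HNRNPDL, HNRNPH2, HNRNPH3, HNRNPM and HNRNPUL1. The other was SF3B1. No CACGTG was found in the 11 SRSF, 11 SNRP, 9 PRPF, 3 SF3A or 3 U2AF promoters. At HNRNPA3 the motif began 71 bp before the start, at chr2:177212723-177212728, and peaks of all 4 libraries covered it. At HNRNPD it began 27 bp before the start and was covered in both CM libraries and DMEM library 2, but not in DMEM library 1. HNRNPH2 holds 2 copies, beginning 42 and 9 bp before the start, and both were covered by the CM peaks while DMEM had no peak there. CACGCG on either strand was found in 16 of the 65 promoters (24.6%, against 14.9% of all), and CACATG in 3 (4.62%, against 8.57%). Among members bound in all 4 libraries, 4 of 32 promoters held CACGTG (12.5%), where 16.8% of the promoters of all such genes did. A match is a description of letters in this window.

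Most splicing factor genes carried a MYC peak, in starved cells as well as after fibroblast medium. Peaks were found at 61 and 60 of the 74 genes in CM libraries 1 and 2 and at 39 and 50 in DMEM libraries 1 and 2. The shares over the whole set of protein-coding genes were 43.9% and 40.9% for CM and 16.8% and 28.1% for DMEM. Both CM libraries had a peak at 60 members (81.1%, against 39.1% of all genes) and both DMEM libraries at 38 (51.4%, against 15.9%). All 38 were bound in CM too, so 38 members were bound in all 4 libraries, against 15.9% of all genes. Another 13 (17.6%, against 12.3%) were bound in both CM libraries and 1 DMEM library. CM-only genes, with a peak in each CM library and none in DMEM, numbered 9 (12.2%), close to the 11.0% among all genes. U2AF1L4 was bound in CM library 1 alone and 13 members (17.6%, against 54.1%) in no library.

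The mean was 60.5 ± 0.707 bound members per CM library and 44.5 ± 7.78 per DMEM library (SD, n = 2). The groups did not overlap. By an exact permutation test, two-sided over 6 relabellings, p was 0.333, which is the lowest value this design can reach. The DMEM libraries differed by 11 members from each other, and their lists held 4657 and 7652 peaks, against 15304 and 12797 in CM. In lists cut to the 4657 highest-scoring peaks each, 43 and 47 members were bound in CM (against 21.9% and 21.6% of all genes) and 39 and 43 in DMEM (against 16.8% and 19.8%), and the groups met at 43. All 4 such lists had 35 members (against 12.3%). With peaks scoring at least 50 alone, 30 were bound in all 4 libraries (against 11.0%) and 12 were CM-only (against 11.5%). Read depth is unknown, so a missing peak is a peak below the authors' threshold and not an absence of MYC.

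**Figure D1:**
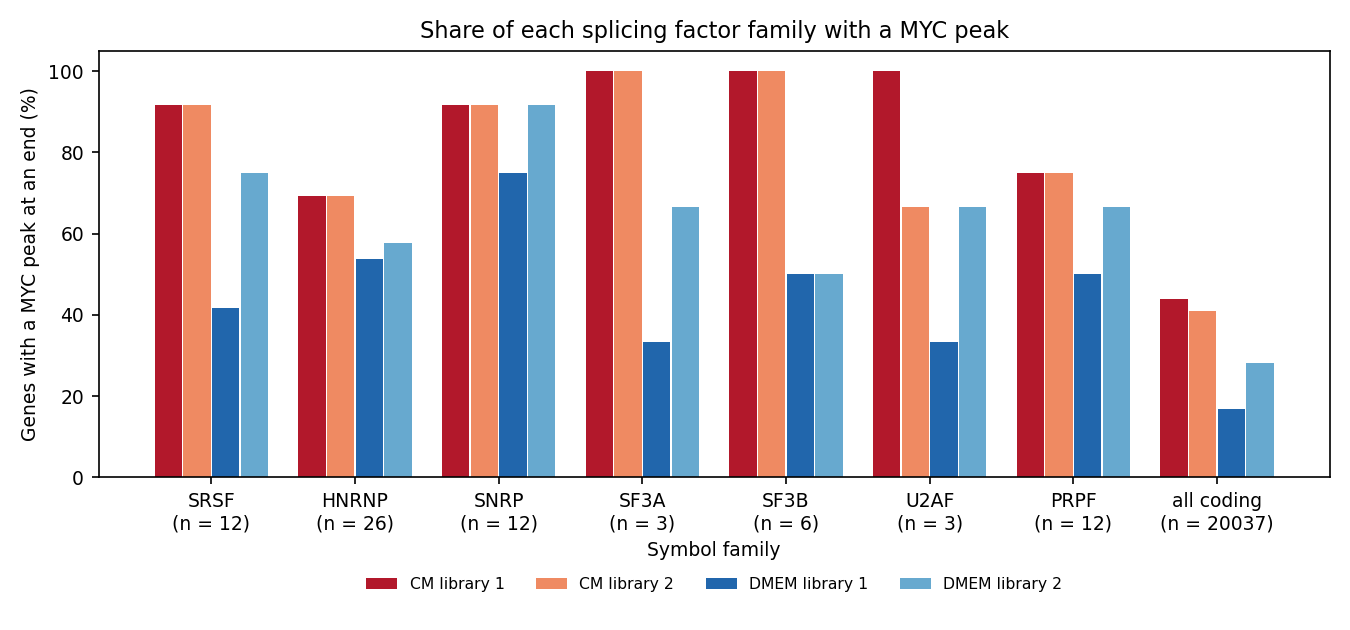
Bars give, for each library, the percent of genes bound in each symbol family and, at the right, among all protein-coding genes. SNRP genes were bound as often in DMEM library 2 as in CM (11 of 12), while all 6 SF3B genes were bound in CM and 3 in either DMEM library.

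Ranks within each list were used to compare peaks, since scores of different libraries have no common scale. The score percentile of a peak is the percent of its list with a lower score, with ties counted to both sides. Lists differ in length, so a lower percentile in DMEM is not read as a change. Bound members had median percentiles of 84.4 and 83.8 in the CM libraries and 79.2 and 75.2 in the DMEM libraries. All bound protein-coding genes had medians of 69.3, 65.7, 59.8 and 60.4 in the same order. Peaks at or above percentile 90 were found at 27 and 24 members in CM (36.5% and 32.4%, against 8.16% and 6.76% of all genes) and at 14 and 13 in DMEM (18.9% and 17.6%, against 2.47% and 3.97%). In all 4 libraries at once, 11 members reached it (14.9%, against 2.06%): SRSF1, SRSF6, SRSF7, HNRNPA1, HNRNPA2B1, HNRNPAB, HNRNPH3, HNRNPK, SNRPE, SF3B3 and U2AF2. HNRNPF fell just short of it in DMEM library 1.

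SR protein genes were nearly all bound in CM and split in DMEM. Of 12 SRSF genes, 11 were bound in each CM library (91.7%), 5 in DMEM library 1 (41.7%) and 9 in DMEM library 2 (75.0%). Over all protein-coding genes the shares were 43.9% and 40.9% in CM and 16.8% and 28.1% in DMEM, so they were lower in DMEM there too. SRSF6, an SR protein of alternative exon choice, had the highest mean percentile of all 74 members, with 99.9 and 99.3 in CM and 99.8 and 99.8 in DMEM. Its peak spanned chr20:43456903-43459698 in CM library 1, over the start of the gene. SRSF7, which also links splicing to export of mRNA, stood at 99.6 and 91.4 in CM and 98.3 and 97.1 in DMEM. SRSF1, the founding member of the family, stood at 97.8, 95.9, 94.5 and 92.7, and SRSF2 at 93.8, 91.3, 85.0 and 82.5. The lowest of the SRSF genes bound in all 4 was SRSF10, at 94.1 and 94.0 in CM and 73.7 and 67 in DMEM. The peaks of these 5 genes were thus at or above percentile 67 in every list. In DMEM, SRSF3, SRSF4, SRSF8 and SRSF9 had a peak in library 2 alone, besides both CM libraries. SRSF3, a small SR protein, stood at 79.0 and 84.1 in CM and 65.9 in DMEM library 2. SRSF9 had only low-ranked peaks, at 27.1 and 0.3 in CM and 28.5 in DMEM library 2. These intervals did not overlap each other, and each also lay at an end of DYNLL1. SRSF5 and SRSF11 were CM-only at the gene ends and SRSF12 had no peak.

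Most HNRNP genes were bound in CM, and most of the unbound ones were copy genes. Of 26 genes, 18 were bound in each CM library, 14 and 15 in DMEM libraries 1 and 2, 13 in all 4 and 8 in none. Over all protein-coding genes, 15.9% were bound in all 4 libraries and 54.1% in none. Of the 8, HNRNPA1L3 and HNRNPCL1 to HNRNPCL4 are copy genes, and HNRNPH1 had peaks of all 4 libraries at starts inside the gene. HNRNPL and HNRNPR were the rest. HNRNPLL, HNRNPM and HNRNPUL1 were bound in both CM libraries and 1 DMEM library, and HNRNPA1L2 and HNRNPH2 in CM alone. HNRNPA1, an abundant shuttling protein that opposes SR proteins at many exons, stood at 99.2 and 98.0 in CM and 98.2 and 96.0 in DMEM. HNRNPA2B1, a relative of HNRNPA1, stood at 97.9, 99.3, 93.2 and 97.2. HNRNPK, which binds C-rich sequence, had percentiles of 98.7, 94.2, 92.0 and 97.3, and HNRNPF, which binds G-runs, of 97.9, 97.1, just under 90 and 94.0. HNRNPAB stood at 93.6, 93.9, 96.3 and 93.7 and HNRNPH3 at 90.9, 92.9, 92.6 and 95.6. The peaks of these genes thus ranked near or above percentile 90 in each list. HNRNPC, a protein of the core particle on nascent transcripts, was the lowest of the 13, at 78.8 and 67.5 in CM and 8.3 and 23.8 in DMEM. HNRNPU, a nuclear scaffold protein, was at 96.0, 94.5 and 92.1 in 3 libraries and at 20.5 in DMEM library 1, where its peak was 225 bp wide.

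The SNRP family had the largest share of genes bound in all 4 libraries among the families of 6 or more genes, with 9 of 12. This was 75.0%, against 15.9% of all protein-coding genes. Bound genes numbered 11 in each CM library, 9 in DMEM library 1 and 11 in DMEM library 2, and none was CM-only. Of all genes, 43.9% and 40.9% were bound in CM and 16.8% and 28.1% in DMEM, and 11.0% were CM-only. The Sm ring genes SNRPB, SNRPD1, SNRPD2, SNRPE and SNRPG were bound in all 4, and SNRPD3 and SNRPF in both CM libraries and DMEM library 2. SNRPE stood at 98.8 and 98.4 in CM and 98.8 and 98.0 in DMEM. SNRPD1 stood at 98.7, 97.6, 93.0 and 89.7, and SNRPB at 93.2, 89.0, 91.7 and 87.8. SNRPF was high in CM, at 86.3 and 90.2, and low in DMEM library 2, at 18.9. SNRPD3 stood at 76.5 and 75.8 in CM and at 3.8 in DMEM library 2, so 2 subunits of the same ring had only weak peaks in DMEM. Of the genes for U1 and U2 proteins, SNRPA had percentiles of 91.7, 93.4, 78.2 and 78.3, and SNRPB2 had the lowest mean of the 9, with 65.6, 21.3, 38.8 and 45.0. SNRPN, an imprinted relative of SNRPB with its main role in brain, had no peak within the gene or 5000 bp around it.

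The U2 snRNP factors differed from gene to gene. All 6 SF3B genes and all 3 SF3A genes were bound in both CM libraries, against 39.1% of all protein-coding genes. In DMEM, SF3B3, SF3B5 and SF3B6 were bound in both libraries and SF3B1, SF3B2 and SF3B4 in neither. SF3B3 stood at 99.8 and 99.4 in CM and 99.5 and 98.8 in DMEM. The remaining SF3B genes bound in all 4 were lower, SF3B6 at 89.9, 82.7, 63.5 and 53.0 and SF3B5 at 75.3, 80.4, 20.5 and 56.4. SF3B1, the subunit at the branch point and a frequent site of mutation in cancer, stood at 61.7 and 72.2 in CM, SF3B2 at 67.1 and 49.4 and SF3B4 at 30.1 and 15.1. SF3B1, SF3B2 and SF3B4 were therefore CM-only without being among the strong CM peaks. SF3A2 was bound in all 4 libraries, at 94.9, 91.9, 79.8 and 89.0, SF3A3 in CM and DMEM library 2, at 28.1, 69.1 and 24.5, and SF3A1 in CM alone, at 39.8 and 19.3. U2AF2, the large subunit that reads the polypyrimidine tract, stood at 99.7 and 97.9 in CM and 98.2 and 99.5 in DMEM. U2AF1, the small subunit that reads the AG, stood lower, at 59.1 and 38.2 in CM and 64.0 in DMEM library 2, with peaks of 339, 233 and 213 bp. The U2AF1L4 peak of CM library 1, at 62.6, also lay at the end of PSENEN.

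PRPF genes had median percentiles of 82.2 and 82.0 in CM and 48.7 and 73.3 in DMEM, the value of DMEM library 1 being the lowest of the 7 families there. Of 12 genes, 9 were bound in each CM library, 6 in DMEM library 1, 8 in DMEM library 2 and 6 in all 4. No PRPF gene reached percentile 90 in either DMEM library, where 2.47% and 3.97% of all genes did. PRPF6, a bridge of the tri-snRNP, was the highest, at 87.7 and 91.9 in CM and 86.0 and 75.9 in DMEM. PRPF39, a protein of the U1 snRNP, stood at 92.5, 85.6, 65.7 and 64.7. PRPF4 was the lowest of the 6, at 68.5 and 79.4 in CM and 31.4 and 8.7 in DMEM. PRPF19 and PRPF38B lay between them, with mean percentiles over the 4 libraries of 73.8 and 66.9. PRPF3 and PRPF40B were bound in CM and DMEM library 2, PRPF38A in CM alone, at 17.9 and 23.9, and PRPF8, PRPF18 and PRPF31 in no library.

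**Figure D2:**
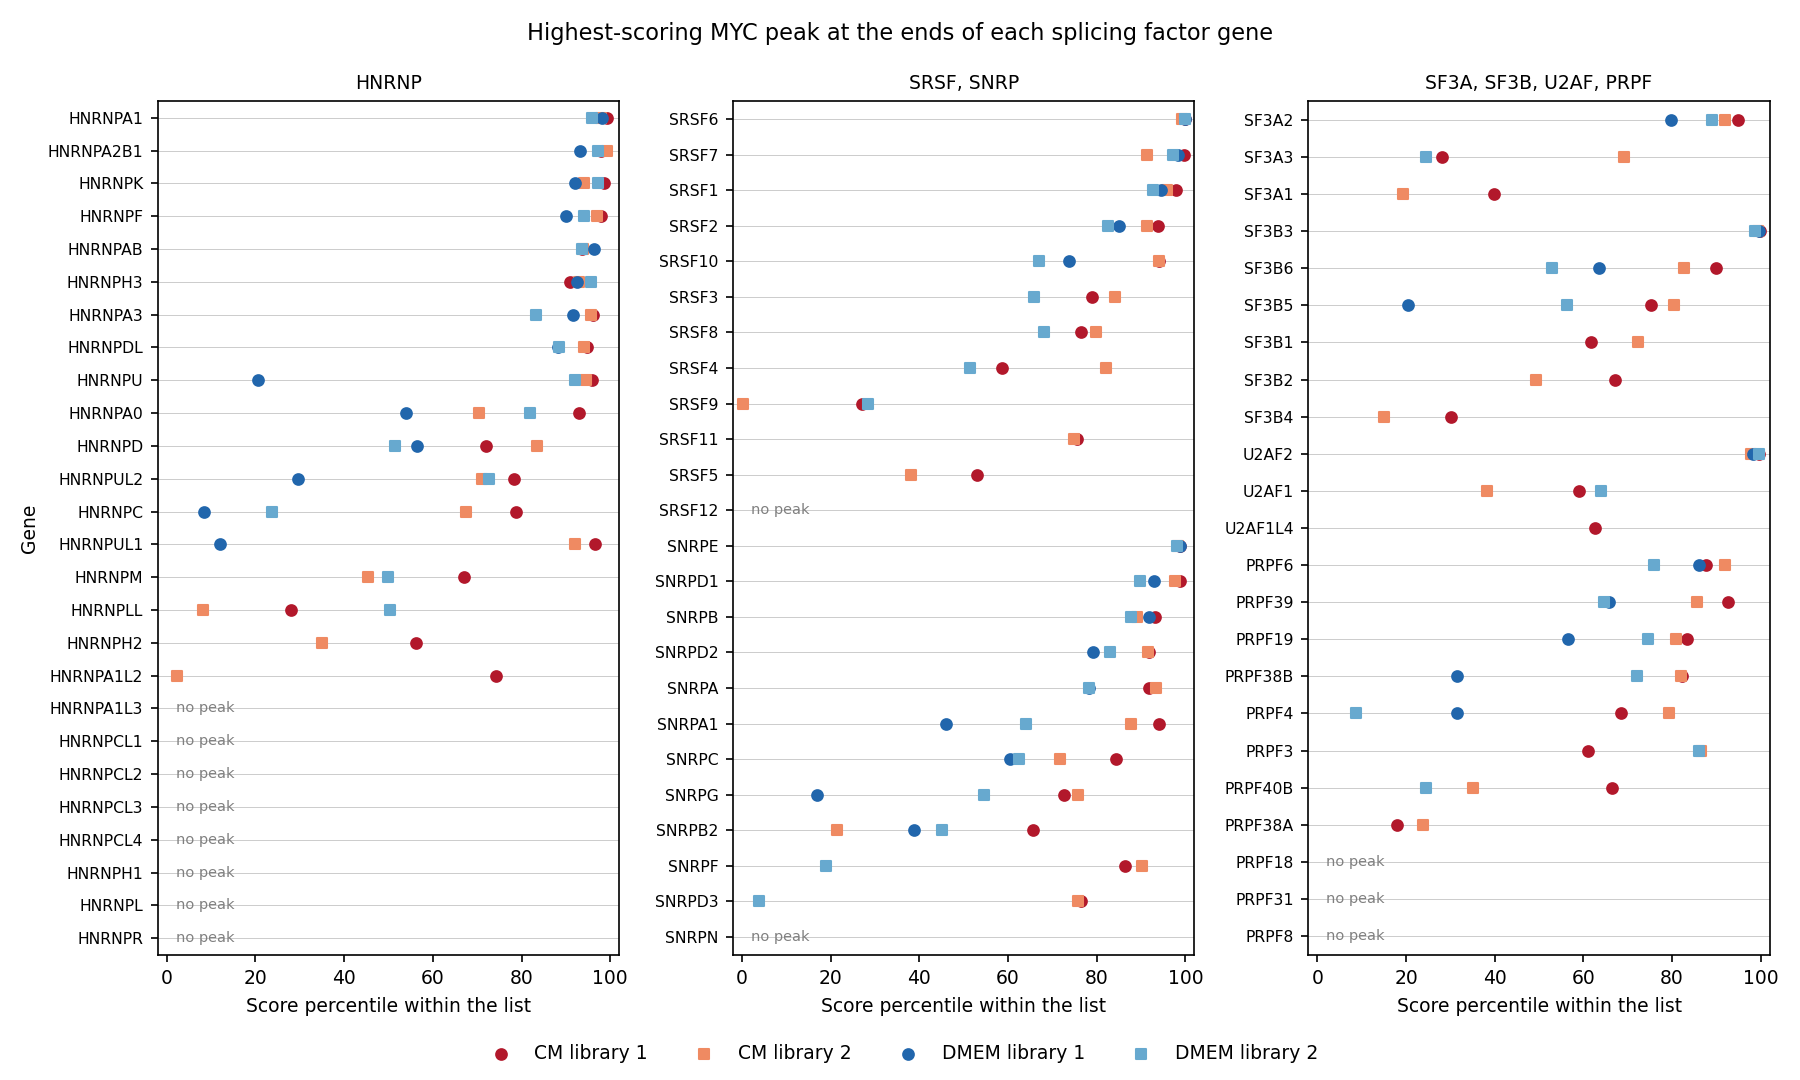
Each point is the score percentile, within its own list, of the highest-scoring peak at an end of the gene, for the 4 libraries, with the genes shown grouped by family and ordered by the number of libraries bound. SRSF6, SF3B3, U2AF2 and SNRPE lie at the right edge in all 4 libraries, while HNRNPC lies at 78.8 and 67.5 in CM and 8.3 in DMEM library 1.

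Peaks at splicing factor genes were wide. The median width over bound members was 1931.0 and 1386.5 bp in CM and 679.0 and 774.5 bp in DMEM, against 1161.0, 878.0, 528.0 and 537.5 bp for all bound protein-coding genes. The mean of the library medians was 1658.8 ± 385 bp in CM and 726.8 ± 67.5 bp in DMEM (SD, n = 2; p = 0.333 in the same exact permutation test). Over every peak of a list, whether at a gene or not, the widths were larger in CM as well, with medians of 691.0 and 593.0 bp against 430.0 and 431.5 bp. As a width percentile within each list, the members' medians were 88.6 and 85.7 in CM and 70.9 and 78.0 in DMEM. All bound genes had 69.3, 66.4, 60.4 and 60.6 in that order. HNRNPA2B1 had the widest peak of any member, 4753 bp in CM library 1, with 3479 bp in CM library 2 and 1438 and 1661 bp in DMEM. HNRNPF (4454, 2780, 1680 and 2066 bp) and SRSF2 (4030, 2320, 1367 and 1868 bp) followed in CM library 1. Each width is that of the highest-scoring peak alone, also where a library had several. At HNRNPA2B1, DMEM libraries 1 and 2 had 2 and 3 peaks. Their highest-scoring peaks, chr7:26199377-26200814 and chr7:26201200-26202860, did not overlap, and both lay within the span of the CM library 1 peak. SRSF6 was as wide in DMEM library 1, with 3063 bp, as in CM library 1, with 2796 bp. HNRNPAB was likewise 2472 bp wide in DMEM library 1 and 2410 bp in CM library 1.

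Widths were also compared between families. In DMEM library 1, the shortest list, the 5 bound SRSF genes had a median width of 1602.0 bp, the 14 HNRNP genes 913.0 bp and the 9 SNRP genes 679.0 bp. The 6 bound PRPF genes had a median of 284.5 bp and a range of 229.0 to 533.0 bp. In width percentiles these medians were 95.0, 81.5, 70.9 and 22.4. In CM library 1, the medians were 1670.0 bp for SRSF, 2894.5 bp for HNRNP, 1931.0 bp for SNRP and 1633.0 bp for PRPF. These medians cover more genes than in DMEM library 1. Over the genes bound in all 4 libraries, CM library 1 had medians of 2964.0 bp for 5 SRSF genes and 1722.5 bp for 6 PRPF genes. The families differ in size and in the number of bound genes, and no test of the difference between families was made.

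**Figure D3:**
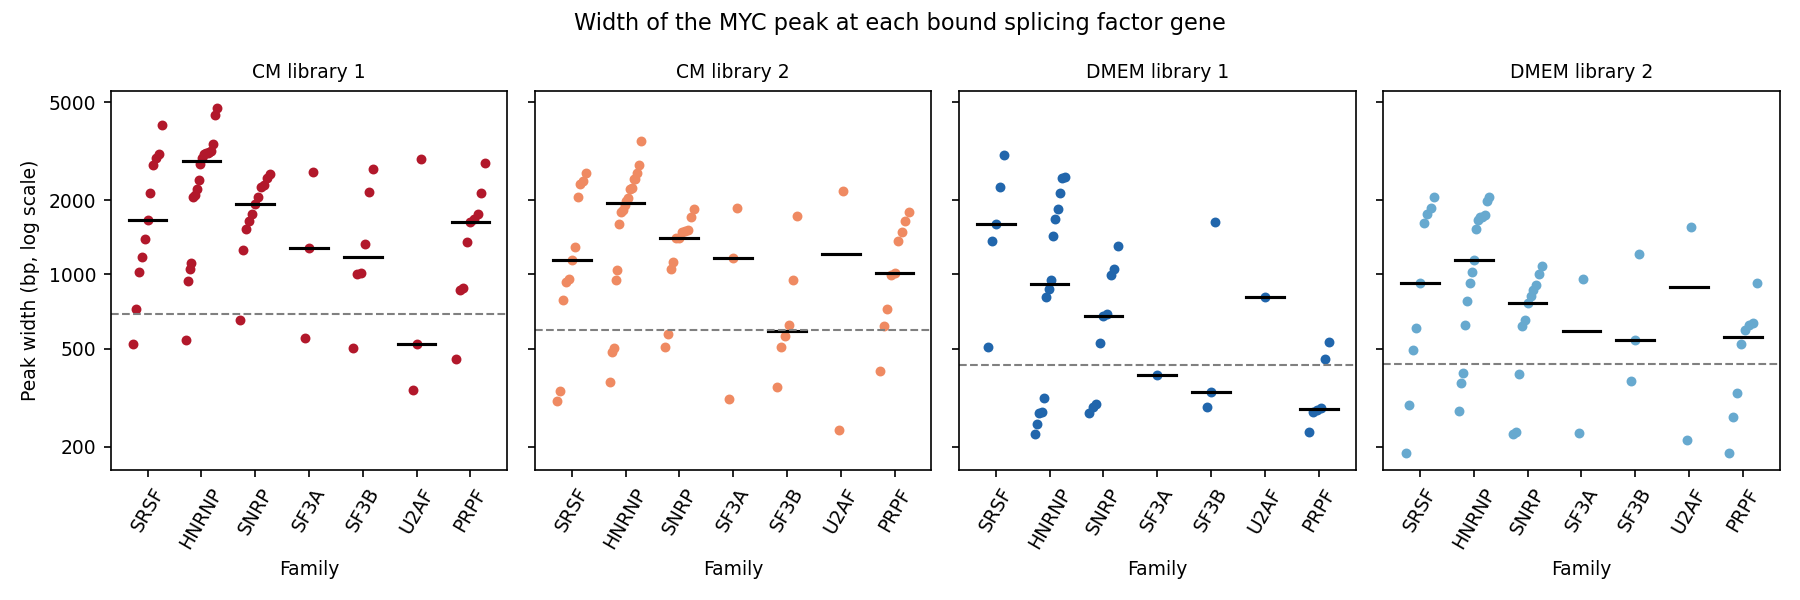
Points are the widths in bp, on a log scale, of the highest-scoring peak of each bound gene by family and library, black bars are family medians, and the dashed line is the median width of the whole list. In DMEM library 1 the PRPF points lie at 229 to 533 bp, with a family median below the line of the list, and in CM library 1 most points lie above it.

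Peaks lay at the starts of the genes. Of the bound members with a listed strand, 54 in CM library 1, 53 in CM library 2, 33 in DMEM library 1 and 43 in DMEM library 2, every gene had a peak at its 5′ end. The highest-scoring peak spanned a listed start in 88.9% and 84.9% of them in CM and in 66.7% and 79.1% in DMEM, where peaks were narrower. The median distance from the middle of the peak to the nearest listed start was 218 and 196 bp in CM and 319 and 171 bp in DMEM. The same values were not computed over all bound genes, so they do not set the members apart from other genes. U2AF1 peaks lay inside the gene without reaching the start, with middles 364 and 311 bp after it in CM and 372 bp in DMEM library 2. SRSF5 peaks likewise lay 472 and 589 bp after the start in CM.

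Some members have starts that lie inside the outermost ends, and 3 genes changed class when these were counted. HNRNPH1, which binds G-runs, was unbound at its outermost ends, chr5:179614178-179634784. It has listed starts at 179624600, 179623671 and 179623401, on the − strand, and all 4 libraries had a peak there. The peak of CM library 1, at percentile 89.4, ran from 179623083 to 179625065. That of DMEM library 1, at 46.1, ran from 179623306 to 179624761. CM library 2 had a peak at 80.8 and DMEM library 2 at 78.3. SRSF11 was CM-only at its outermost start, with percentiles of 75.5 and 74.8. At its second listed start, 70221380 on chromosome 1, all 4 libraries had a peak within 1000 bp, at 89.8 and 79.4 in CM and 3.7 and 65.3 in DMEM. HNRNPUL1 had its highest CM percentiles, 96.6 and 92.1, from peaks that reached an inner start, and its peak at the outermost start was at 12 in DMEM library 1 and missing in DMEM library 2. At the inner starts, DMEM libraries 1 and 2 had peaks at 81.5 and 89.6. With every listed start counted, an alternative chosen after the data were seen, 41 members were bound in all 4 libraries (55.4%, against 17.0% of all genes), and 8 were CM-only (10.8%, against 11.3%).

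**Figure D4:**
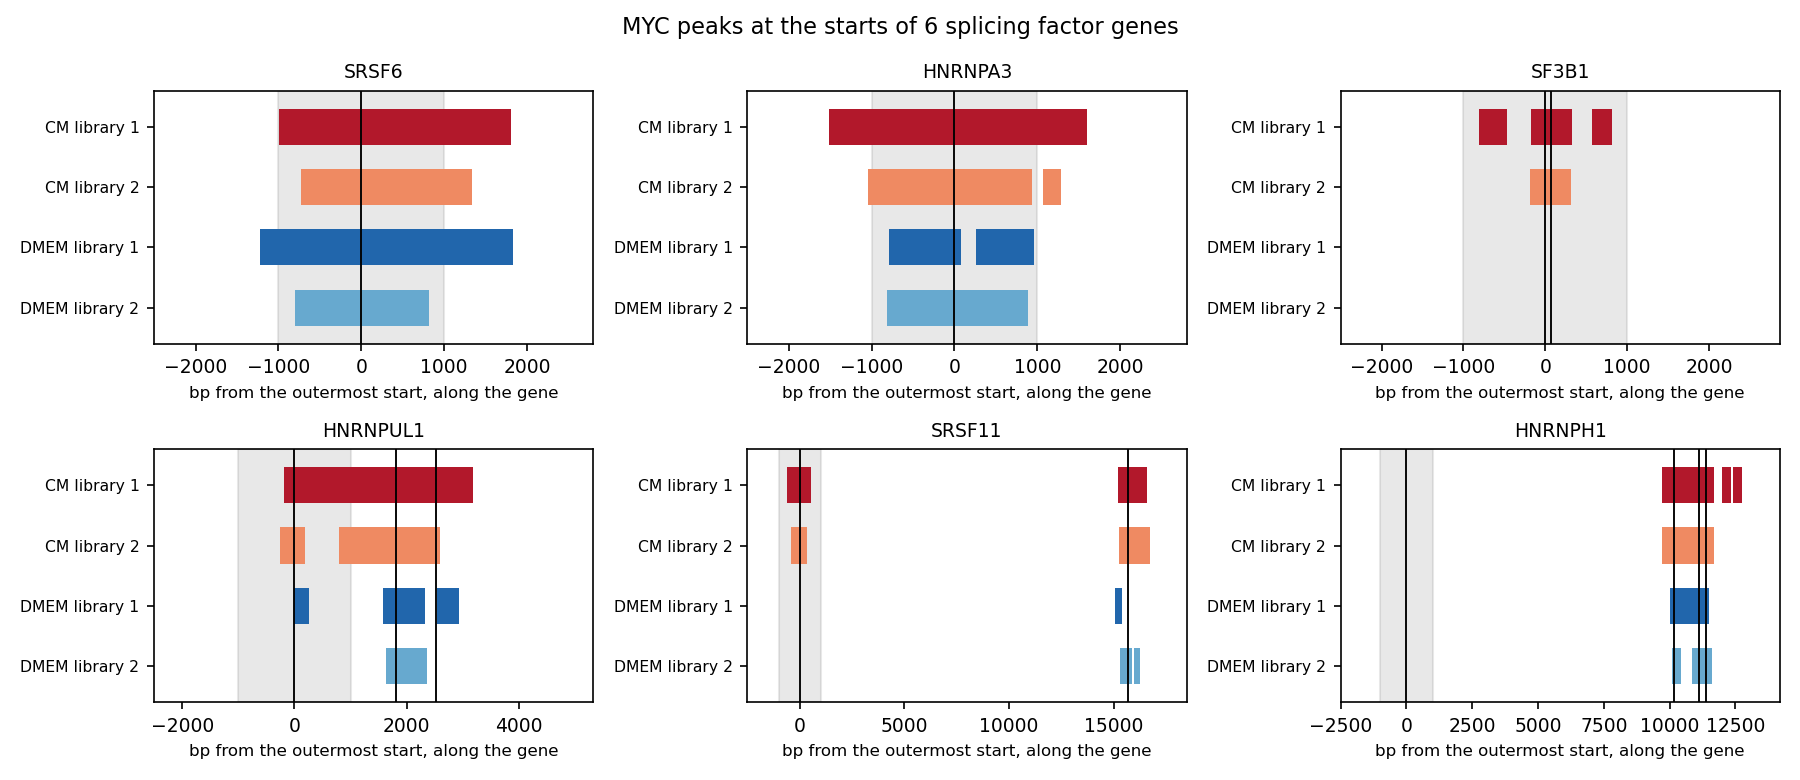
Coloured bars are the peaks of each library along 6 genes, in bp from the outermost start in the direction of the gene, black lines are listed starts and the grey band is the window of 1000 bp around the outermost start. SRSF6 and HNRNPA3 have peaks over the start in all 4 libraries and SF3B1 in CM alone, while HNRNPH1 and SRSF11 have peaks of all 4 libraries at starts far inside the gene.

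The CM-only members had peaks of middle or low rank. The CM-only members were HNRNPA1L2, HNRNPH2, PRPF38A, SF3A1, SF3B1, SF3B2, SF3B4, SRSF5 and SRSF11. HNRNPH2 stood at 56.1 and 35 in CM, SRSF5 at 53.0 and 38.2, and HNRNPA1L2, an HNRNPA1-like copy gene, at 74.3 and 2.3. The highest value among the 9 was 75.5, at SRSF11. The peaks of SRSF11, HNRNPH2 and SF3A1 also lay at the ends of the neighbours LRRC40, GLA and CCDC157. SF3B2 had a peak in DMEM library 2 between 1000 and 2500 bp from a gene end, so it was not CM-only with a window of 2500 bp. The count rests on DMEM library 2, without which 21 members were CM-only. The share of all genes without that library was not computed. Over all genes, 12.3% were bound in both CM libraries and 1 DMEM library. In lists of equal length 3 were (4.05%, against 1.89% of all genes): SRSF11, SNRPD3 and SNRPF. Of these 3, SNRPD3 and SNRPF have their weak DMEM library 2 peaks below that length. HNRNPUL1 was the highest of the genes with a peak in 1 DMEM library, followed by SNRPF and SRSF3.

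Of the 13 members without a peak at an end, 5 are copy genes of other members, HNRNPA1L3 and HNRNPCL1 to HNRNPCL4. The HNRNPCL genes are near-identical, and peaks there depend on how reads with several matches were treated, a step not given in the sources used here. Unbound as well were HNRNPH1, HNRNPL, HNRNPR, PRPF8, PRPF18, PRPF31, SNRPN and SRSF12. Apart from HNRNPH1, none of the 13 had a peak in any library within the gene or 5000 bp on either side. PRPF8, the central scaffold of the spliceosome, and PRPF31, which binds the U4 snRNA, are core factors, and HNRNPL and HNRNPR are widely expressed RNA-binding proteins. At PRPF6 and PRPF4, which encode proteins of the same tri-snRNP, all 4 libraries had peaks.

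Many of the peaks also lay at a neighbouring gene. This held for 26 of 61 bound members in CM library 1 (42.6%, against 35.8% of all bound genes), 21 of 60 in CM library 2 (35%, against the same 35%), 17 of 39 in DMEM library 1 (43.6%, against 37.3%) and 19 of 50 in DMEM library 2 (38.0%, against 36.2%). The shares are near those of all genes. In all 4 libraries the HNRNPA1 peak was shared with CBX5 and the HNRNPA2B1 peak with CBX3, genes of the heterochromatin protein 1 family. The SF3B3 peak was shared with COG4, the SF3A2 peak with PLEKHJ1, the PRPF6 peak with SAMD10 and the PRPF4 peak with CDC26. The peaks of SRSF6, SRSF7, SNRPE and SNRPD1 lay at no other protein-coding gene in any library.

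Other genes of splicing and related RNA processing varied from list to list, and no difference from the 7 families was tested. Of 138 such genes, 90 were bound in both CM libraries (65.2%), 46 in all 4 (33.3%) and 21 in CM alone (15.2%). Over all protein-coding genes the shares were 39.1%, 15.9% and 11.0%, and these apply to each list below. The 138 include 15 regulators listed as restricted to neurons or muscle, of which 1 was bound. Among 49 further spliceosome genes, both CM libraries had 32 (65.3%) and all 4 had 14 (28.6%). DDX42, a helicase of the U2 snRNP, stood at or above 99 in every list, and TXNL4A, of the U5 snRNP, at 97.7, 97.8, 97.6 and 97.2. Of 30 regulators not listed as restricted to neurons or muscle, both CM libraries had 24 (80.0%) and all 4 had 16 (53.3%). They were led by PCBP1, at 99.9, 99.9, 99.8 and 99.8, and SYNCRIP, at 99.5, 99.4, 99.4 and 98.6. Of 15 regulators listed as restricted to neurons or muscle, PTBP2 alone was bound, in CM and in DMEM library 2. This was 6.67% bound in any library, against 45.9% of all genes. Whether each gene of that list is so restricted was not tested. By the same counts, the snRNP assembly genes had 9 and 8 of 13 bound (69.2% and 61.5%), led by GEMIN8 and PRMT5. The exon junction complex had 7 and 4 of 7 (100% and 57.1%), led by RNPS1 and MAGOHB. Of 7 kinases of SR proteins, CLK1 was bound in all 4, and CLK4 and SRPK1 in CM and DMEM library 2. CLK2, CLK3, SRPK2 and SRPK3 were bound in none. Both CM libraries thus had 42.9% of the kinases and all 4 had 14.3%, near the shares over all genes.

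In the core list the genes with no peak were BCAS2, CRNKL1, CWC25, DDX39B, DHX16, MFAP1, PLRG1, SNU13 and SYF2. They made up 18.4% of that list, while 54.1% of all protein-coding genes had no peak. Among the regulators not listed as restricted to neurons or muscle they were TAF15, MBNL1, MBNL2 and ESRP1. In the assembly and LSm lists they were SMN1, SMN2, GEMIN4 and LSM2. SMN1 and SMN2 are near-identical copies. SNRNP27 was the unbound gene among 7 U snRNP genes with SNRNP symbols, of which 6 had peaks in both CM libraries and SNRNP70 in all 4. These shares were 85.7% and 14.3%, against 39.1% and 15.9% of all genes. The unbound regulators listed as restricted were NOVA1, NOVA2, RBFOX1, RBFOX3, ELAVL2, ELAVL3, ELAVL4, CELF3, CELF4, CELF5, SRRM4, RBM20, MBNL3 and KHDRBS2.

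As a check of the cells, 3 of 6 epithelial markers (KRT8, KRT18 and KRT19) had peaks in both CM libraries and none in DMEM, EPCAM, CDH1 and KRT7 had no peak in any library, and none of 7 fibroblast markers had one. MYC peaks are no measure of expression, so this does not test the label.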

How the data were processed

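MYC ChIP-seq peak lists of 4 immunoprecipitated libraries, 2 per condition, were used, and the 2 inputs were not analysed here. The submitters' processing notes name build GRCh38 and MACS2 2.1.1.20160309 beside Picard 2.9.0, Bowtie2 2.3.4, Trim Galore 0.4.3 and SAMtools 1.3.1, while settings and controls were not stated in the sources used here. The authors deposited 1 list per library, with a start, an end and a whole-number score per peak of at least 13 to 14, whose scale no header states. It served only for ranks within a list. Lists hold no reads, so depth is unknown. Genes came from RefSeq GRCh38.p14, and strands, starts and promoters from its promoter table.

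A peak was assigned to a gene end at an overlap of at least 1 bp with a window of 1000 bp, and the highest-scoring peak stood for the gene. This step was tested on simulated data. Library values were compared by exact permutation over 6 relabellings, and lists by counts beside all 20037 protein-coding genes, with no test. Named genes are, per family, the 2 highest and the lowest by mean percentile among those bound in all 4 libraries, every CM-only member, the 3 highest of those bound in 1 DMEM library, every member bound in fewer than 2 CM libraries, and in the other lists the 2 highest and all unbound genes. Further members are given for completeness, and 1 member is counted but not reported here by itself. The members and lists were chosen with earlier results of these data known, and the SNRNP list was added after the files were opened. Python 3.11.15 and pandas 2.3.3 were used.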

Additional observations from a re-analysis of the deposited data

How the results depend on the processing

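The count of members bound in all 4 libraries, 38, ranged from 30 with a score of at least 50 to 41 with every listed start, and was 37 by the authors' common lists. Leaving out each library in turn gave 38 to 50. The 9 CM-only members were 3 in lists of equal length and 22 by the authors' common lists, where genes bound in 1 DMEM library count as unbound in DMEM by construction. They were 9 to 21 with each library left out in turn, with 21 without DMEM library 2, and 8 to 12 under the other settings. For the common lists and with a library left out, no share over all genes was computed beside these counts. CM exceeded DMEM in bound members under each setting, by 4.0 in lists of equal length (exact permutation p = 0.667) and by 10.5 to 21.5 with each library left out in turn. The difference in median score percentile, 6.9, was 0.8 with a score of at least 50 (exact permutation p = 1) and up to 11.5 for members bound in all 4 libraries. The difference in median width, 932.0 bp, ranged from 659.8 to 1204.2 bp with each library left out in turn. The libraries carry numbers 1 and 2 in both conditions. With the number as a replicate block the differences were the same, 16.0 members, 932.0 bp and 6.9, and the exact permutation p became 0.5, the smallest that 2 pairs allow. Deviations of same-numbered libraries correlated at 0.05 over 3180 genes bound in all 4, so the numbers are not taken as pairs.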

Other observations

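Proteins that form rings on RNA come in related sets, the Sm proteins of most snRNPs and the LSm proteins, of which the LSm2 to LSm8 ring binds the U6 snRNA. The LSm list used here also held LSM1, LSM10 and LSM11, which are outside that ring, so it is not a list of spliceosome genes alone. Of the 7 Sm ring genes SNRPB, SNRPD1, SNRPD2, SNRPD3, SNRPE, SNRPF and SNRPG, 5 were bound in all 4 libraries. Of 10 LSm genes LSM5 and LSM7 were (20.0%, against 15.9% of all protein-coding genes). They stood at 83.7, 84.5, 78.2 and 58.2 and at 89.2, 89.9, 35.4 and 62.4. In both CM libraries, 8 of the 10 LSm genes had a peak (80.0%, against 39.1% of all genes). LSM1, LSM4, LSM10 and LSM11 were bound in both CM libraries and DMEM library 2, LSM3 and LSM8 in CM alone, LSM6 in CM library 1 and LSM2 in none. This comparison was chosen after the values were seen, and the difference between the lists was not tested.

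Some genes outside both rings that share a particle were also unlike each other. In the U5 snRNP, PRPF8 had no peak, and SNRNP200, a helicase, stood at 79.0 and 67.5 in CM and 75.9 in DMEM library 2. PRPF6 and TXNL4A were bound in all 4 libraries. These genes are examples and not a full list of the particle.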
